A study of Mus musculus with 9 samples.

Results

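Sinusoidal endothelial cells line the liver's capillaries, and 10 genes that mark them or mark their loss of identity were followed here through liver RNA sequencing of 9 mice. The genes were taken by name and not by their values, though earlier results of these data were known when they were chosen. Of these, 8 are sinusoidal identity genes (Stab1, Stab2, Lyve1, Clec4g, Oit3, Fcgr2b, Dnase1l3 and Gata4) and 2 are genes of capillarization (Cd34 and Plvap). All 10 were found among the 17846 gene identifiers in the files, and all 10 were among the 13619 genes with enough reads to be tested. Every mouse was a wild-type (WT) male of strain C57/BL, and each of the 3 groups had 3 mice with 1 library per mouse. Control mice were fed normal chow and stayed sedentary. NASH mice were kept for 20 weeks on an atherogenic diet with cholesterol and cholate (the Ath diet), which induces nonalcoholic steatohepatitis, and were sedentary too. NASH+Exercise mice ate the Ath diet for 12 weeks before treadmill running was added for 8 weeks, begun at 20 weeks of age by the study's account. Livers were taken after an overnight fast, and RNA came from whole liver tissue rather than from isolated cells.

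Sinusoidal endothelium has open pores called fenestrae, lacks a continuous basement membrane, and clears waste molecules from blood through scavenger and Fc receptors. In chronic liver injury it can take on features of ordinary continuous capillaries, with closed pores, a basement membrane beneath the cells and CD34 on their surface, a process known as capillarization. Among the identity genes, Stab1 and Stab2 encode the scavenger receptors stabilin-1 and stabilin-2, Lyve1 a hyaluronan receptor, Clec4g the lectin LSECtin, and Fcgr2b an inhibitory Fc receptor for immune complexes. Dnase1l3 encodes a secreted DNase, Gata4 a transcription factor that directs sinusoidal specification, and Oit3 a zona pellucida domain protein used as a marker. Of the capillarization genes, Cd34 encodes a sialomucin of continuous endothelium and blood progenitors, and Plvap the protein of the diaphragms that span endothelial pores. Several of these genes are not exclusive to the sinusoid, since Stab1, Lyve1 and Fcgr2b are also made by macrophages, Gata4 by other liver cells, and Cd34 by mesenchymal and mesothelial cells. In bulk tissue, fewer cells of a type and less RNA per cell cannot be told apart.

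Library totals lay between 20085976 and 22495408 reads as estimated counts, and between 15440 and 16371 genes had at least 1 count. TMM scaling factors between libraries spanned 0.800 to 0.976 for Control mice, 1.09 to 1.23 for NASH mice and 0.912 to 1.08 for NASH+Exercise mice. Levels compared between mice are CPM, the reads of a gene relative to the library total after this scaling. Leaving the scaling out moved the median over all genes of the NASH against Control log2 fold change from 0.01 to 0.36. Hepatocyte genes were at high levels in every library, as 8 of them summed to 91299 to 154229 CPM, and endothelial genes were present throughout. The 18 pan-endothelial genes summed to 178 to 267 CPM in Control mice, 221 to 325 CPM in NASH mice and 204 to 261 CPM in trained mice, and none was at 0 in a whole group.

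Levels of different genes were set side by side only in TPM, which divides by transcript length. In Control liver the order was Clec4g (37.8 ± 16.5 TPM, SD, n = 3), Plvap (36.4 ± 6.68), Fcgr2b (20.6 ± 10.8), Dnase1l3 (15.7 ± 5.28), Gata4 (9.53 ± 1.02), Oit3 (6.68 ± 3.31), Stab1 (6.41 ± 1.03), Stab2 (6.35 ± 1.98), Lyve1 (1.74 ± 1.09) and Cd34 (0.503 ± 0.186). The mice overlapped between most neighbours in this order, and the steps with no overlap were those from Dnase1l3 to Gata4, from Stab2 to Lyve1 and from Lyve1 to Cd34. In NASH, Plvap (60.0 ± 12.9 TPM) came before Clec4g (52.6 ± 11.8) with overlapping mice, and Lyve1 (5.49 ± 1.73) and Cd34 (2.44 ± 0.480) were again the lowest. NASH+Exercise kept Plvap (54.4 ± 6.49 TPM) and Clec4g (45.7 ± 6.95) at the top and Cd34 (1.01 ± 0.590) at the bottom. Cd34 rested on 9 to 21 reads per Control mouse and Lyve1 on 33 to 91, so their values carried more counting error than those of the other members.

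Relative to the other genes, the members differed in how far mice of the same group spread. The within-group SD on the log2 CPM scale was 0.16 for Stab1 and 0.19 for Gata4, below the median of 0.23 over all genes tested. It was 0.24 for Stab2, 0.34 for Clec4g, 0.35 for Plvap, 0.38 for Fcgr2b, 0.43 for Dnase1l3 and 0.44 for Oit3. Lyve1 (0.52) and Cd34 (0.62), the members with the fewest reads, had the widest spread. The plot of member levels by mouse shows each mouse on its own.

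**Figure D1:**
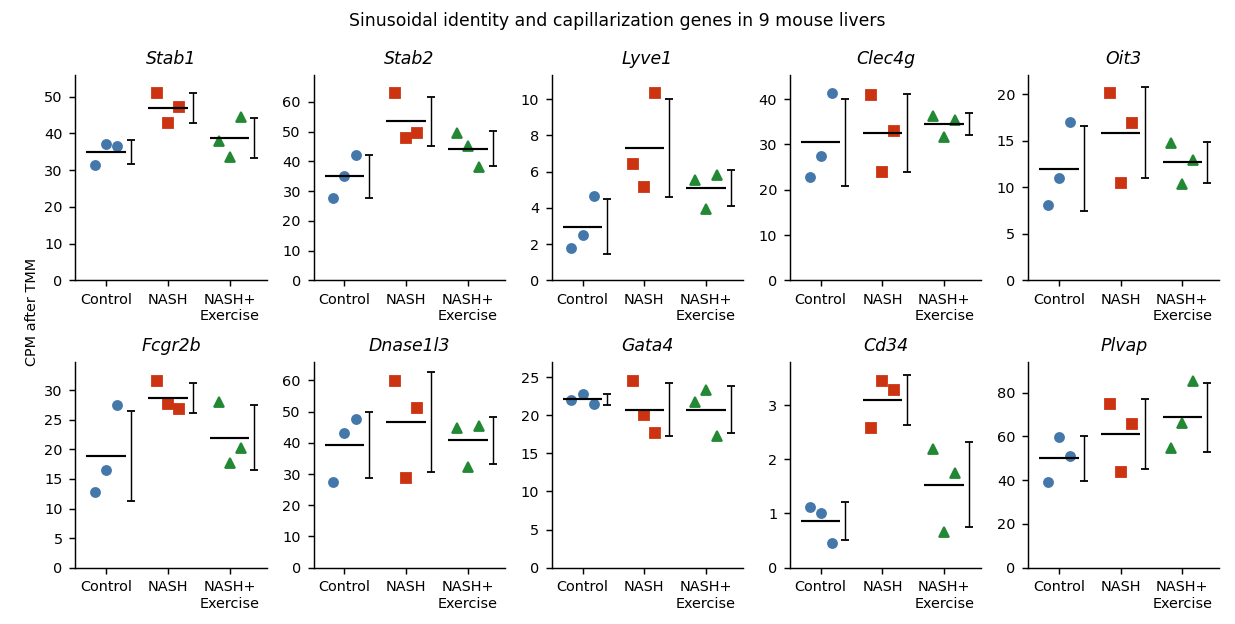
Level of each member in the liver of each mouse, in CPM after TMM scaling on linear axes that start at 0, with 3 mice per group (circles Control, squares NASH, triangles NASH+Exercise), the group mean as a horizontal line and the SD as a bar beside it. Cd34, Lyve1, Stab1 and Stab2 have all 3 NASH mice above all 3 Control mice, and the groups overlap for the other members.

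The first comparison asked what the Ath diet did to the sinusoidal genes. No sinusoidal identity gene passed the test as lower in NASH liver. Stab1, Stab2 and Lyve1 rose, as did the capillarization gene Cd34, while Clec4g, Oit3, Fcgr2b, Dnase1l3, Gata4 and Plvap did not pass the test. Under the study's definition of a differentially expressed gene (DEG, adjusted p under 0.05 and absolute log2 fold change above 1), 2 of the 10 members were called, Lyve1 and Cd34, both higher, against 18.3% of all genes tested in either direction and 15.3% higher. With the adjusted p alone, 4 of 10 were called, all higher, against 35.6% of all genes in either direction and 21.2% higher. The same 4 members were those whose NASH mice all lay above all Control mice, a pattern of complete separation seen in 49.6% of all genes in either direction and 27.4% in this direction. Counted in either direction, the shares among the members are close to those of the whole table.

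Cd34 had the largest change of the members. Its level was 1.13, 1.001 and 0.459 CPM in the Control mice and 2.58, 3.45 and 3.27 CPM in the NASH mice. All 3 NASH mice stood well clear of the Control mice, and the lowest value was that of Control replicate 29. The log2 fold change was 1.85 ± 0.43 (SE), or 3.60-fold, with an adjusted p of 0.00748 (quasi-likelihood test of edgeR, Benjamini-Hochberg adjusted over 13619 genes, as for every adjusted p that follows). It passed under all 11 alternatives run for it, with log2 fold changes from 1.50 to 2.22.

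Plvap, the other capillarization gene, behaved differently. It measured 39.3, 59.7 and 50.8 CPM in Control and 74.8, 43.6 and 65.5 CPM in NASH. NASH replicate 19 lay inside the Control range, so the groups overlapped. The log2 fold change was 0.30, with a 95% interval from -0.22 to 0.81 and an adjusted p of 0.361. Without any scaling between libraries it was 0.64 and passed, with an adjusted p of 0.0242. Whether Cd34 and Plvap differed in their response was not tested.

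Stab2 read 27.6, 35.0 and 42.3 CPM in the Control mice against 62.9, 48.0 and 49.4 CPM in the NASH mice. The lowest NASH mouse was above the highest Control mouse, and NASH replicate 5 was the highest of all. Stab2 rose by a log2 fold change of 0.61 ± 0.18, or 1.53-fold, with an adjusted p of 0.0201 that became 0.0769 without Control replicate 3 and 0.0835 without NASH replicate 5. Its close relative Stab1 measured 31.3, 37.0 and 36.5 CPM in Control and 51.0, 42.8 and 47.3 CPM in NASH. The gap between the groups was small but complete. Stab1 rose by 0.43 ± 0.13 on the log2 scale, or 1.34-fold, with an adjusted p of 0.0296, but it passed in only 3 of 11 alternatives, with adjusted p values from 0.00130 to 0.111. The call was lost with DESeq2 (0.0546), with RLE size factors (0.0515) and without a filter on low counts (0.0621). It was also lost without Control replicate 3 (0.111) or 29 (0.0708), and without NASH replicate 5 (0.103), 19 (0.0610) or 20 (0.0748).

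Lyve1 was 1.77, 2.50 and 4.64 CPM in the Control mice and 6.40, 5.16 and 10.3 CPM in the NASH mice. Control replicate 29 came close to NASH replicate 19, and NASH replicate 20 was far above the rest. Lyve1 rose by 1.29 ± 0.36 on the log2 scale, or 2.44-fold, with an adjusted p of 0.0192. Leaving out Control replicate 3, Control replicate 4 or NASH replicate 20 ended the call, with adjusted p values of 0.0653, 0.0665 and 0.0771, the last at a log2 fold change of 0.95.

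Fcgr2b stood at the edge of the threshold. It was 12.8, 16.6 and 27.5 CPM in Control and 31.6, 27.7 and 26.9 CPM in NASH. Control replicate 29 alone reached the NASH range. The log2 fold change was 0.60 ± 0.26 with an adjusted p of 0.103, and it passed without Control replicate 29 (0.93, adjusted p 0.00796) and without scaling (0.93, adjusted p 0.0462). The mouse Fc gamma receptor genes resemble each other in sequence, so estimated counts may be shared among them and the level of Fcgr2b is uncertain to that extent.

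For the remaining identity genes the NASH and Control mice overlapped. Clec4g was 22.9, 27.4 and 41.3 CPM in Control and 41.0, 23.9 and 32.9 CPM in NASH, a log2 fold change of 0.09 with a 95% interval from -0.43 to 0.61. The interval therefore still allowed changes of either sign. Oit3 ranged from 8.10 to 17.0 CPM in Control and from 10.5 to 20.1 CPM in NASH (log2 fold change 0.40, adjusted p 0.329). Dnase1l3 spanned 27.4 to 47.5 CPM in Control and 28.9 to 60.0 CPM in NASH (0.24, adjusted p 0.543). Gata4 was the steadiest member in Control, at 21.95, 22.9 and 21.5 CPM, and measured 24.6, 20.0 and 17.7 CPM in NASH. Its log2 fold change was -0.09 with a 95% interval from -0.43 to 0.25, and its sign turned to 0.26 without scaling between libraries. The median log2 fold change of the 8 identity genes was 0.41, beside 0.01 for all genes tested.

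Promoter sequence was looked at for the stabilins and Cd34, which rose in NASH, and for Clec4g, which did not pass the test. RefSeq windows of the GRCm38.p6 build, from 250 bases before to 50 bases after the gene start that RefSeq lists, were at hand for 5 of the 10 members, the other being Fcgr2b (chr1:170976022-170976321, minus strand). Windows of Lyve1, Oit3, Dnase1l3, Gata4 and Plvap were not used here. The windows shown are Stab1 at chr14:31168592-31168891, Stab2 at chr10:87007893-87008192 and Clec4g at chr8:3720602-3720901, all on the minus strand, and Cd34 at chr1:194938571-194938870 on the plus strand. Each is written 5′ to 3′ along its gene, with capitals for matches on either strand to GATAA, the core read by GATA factors, AGGAAG, a core of ETS factors, and CACCC, a core of KLF factors.
Stab1: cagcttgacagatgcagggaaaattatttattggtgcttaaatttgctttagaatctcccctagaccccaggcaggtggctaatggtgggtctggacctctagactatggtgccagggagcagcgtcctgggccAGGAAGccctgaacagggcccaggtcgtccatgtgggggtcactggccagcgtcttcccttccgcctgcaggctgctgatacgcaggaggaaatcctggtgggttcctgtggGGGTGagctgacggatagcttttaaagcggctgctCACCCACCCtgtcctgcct
Stab2: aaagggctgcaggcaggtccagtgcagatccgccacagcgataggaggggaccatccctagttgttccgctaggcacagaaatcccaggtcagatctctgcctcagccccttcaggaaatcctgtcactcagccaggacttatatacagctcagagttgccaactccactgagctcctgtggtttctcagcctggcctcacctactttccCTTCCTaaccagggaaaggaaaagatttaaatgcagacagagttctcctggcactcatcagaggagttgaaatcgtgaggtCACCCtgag
Clec4g: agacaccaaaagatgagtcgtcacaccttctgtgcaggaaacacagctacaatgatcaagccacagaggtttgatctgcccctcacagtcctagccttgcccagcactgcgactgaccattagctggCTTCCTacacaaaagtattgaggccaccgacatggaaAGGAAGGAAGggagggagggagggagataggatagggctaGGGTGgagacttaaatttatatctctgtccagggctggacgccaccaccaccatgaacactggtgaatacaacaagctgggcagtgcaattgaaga
Cd34: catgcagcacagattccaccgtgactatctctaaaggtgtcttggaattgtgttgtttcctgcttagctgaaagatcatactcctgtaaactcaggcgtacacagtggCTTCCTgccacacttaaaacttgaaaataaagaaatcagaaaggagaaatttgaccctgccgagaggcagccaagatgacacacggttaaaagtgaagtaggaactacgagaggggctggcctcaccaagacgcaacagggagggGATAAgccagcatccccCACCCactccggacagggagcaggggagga

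AGGAAG was found 1 time in the Stab1, Stab2 and Cd34 windows and 3 times in that of Clec4g, and 0 times in that of Fcgr2b. Among all 32851 windows of this length, 35.4% held it. CACCC was found 3 times in Stab1, 2 times in Fcgr2b and 1 time in Stab2, Clec4g and Cd34, and 57.5% of all windows held it. GATAA, present in 25.4% of all windows, was matched only in Cd34 among these 5. Neighbouring copies of CACCC in Stab1 and of AGGAAG in Clec4g shared bases, and different motifs did not overlap. These are matches of letters within a short window and were not tested for binding.

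By the annotation of GRCm38.p6, Stab1 (Entrez 192187) lies at chr14:31139017-31168651, Stab2 (192188) at chr10:86841194-87008038, Lyve1 (114332) at chr7:110850607-110862953 and Clec4g (75863) at chr8:3707066-3720695. Oit3 (18302) lies at chr10:59422960-59441779, Fcgr2b (14130) at chr1:170960558-170976071, Dnase1l3 (13421) at chr14:7965187-7994760 and Gata4 (14463) at chr14:63198914-63271712. Cd34 (12490) lies at chr1:194938821-194961292 and Plvap (84094) at chr8:71497753-71511806. Values are per gene, with no split by exon or transcript, and the promoter windows of Stab1, Stab2 and Clec4g start from a point inside these spans.

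The second comparison asked whether treadmill training changed these genes in mice that stayed on the Ath diet. None of the 10 members passed the test between NASH+Exercise and NASH, under the DEG definition (0.14% of all genes tested) or with the adjusted p alone (0.162%). At an unadjusted p under 0.05 there was 1 member, Cd34, and DESeq2 called 0 members. The shares of all genes at the unadjusted p and with DESeq2 are not given here, so these counts have no background beside them. This comparison shares the NASH mice with the previous one, so the signs of the members in both are not independent of each other. The plot of member fold changes shows the 3 comparisons side by side.

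**Figure D2:**
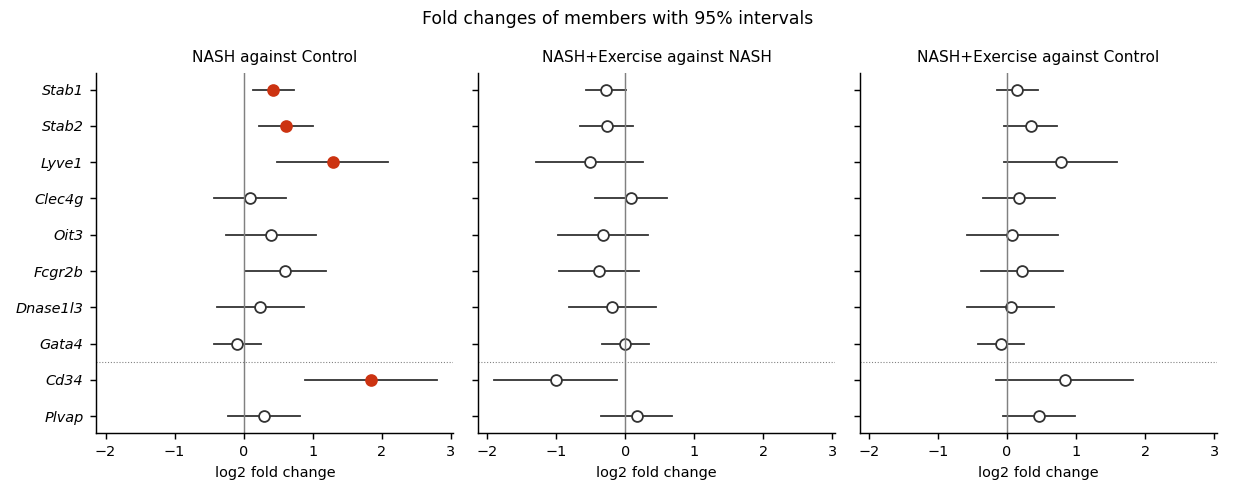
Log2 fold change of each member with its 95% interval from edgeR in the 3 comparisons, in which filled points have an adjusted p under 0.05 and open points do not, and a dotted line separates the 8 identity genes from the 2 capillarization genes. Filled points appear in NASH against Control, for Stab1, Stab2, Lyve1 and Cd34, and in neither other comparison.

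Cd34 was 2.18, 0.661 and 1.75 CPM in the NASH+Exercise mice. All 3 lay below the lowest NASH mouse at 2.58 CPM, a separation that 24.1% of all genes showed in either direction, and NASH+Exercise replicate 18 was within the Control range. The log2 fold change against NASH was -1.01 ± 0.40, with an unadjusted p of 0.0297 and an adjusted p of 0.273. Over the alternatives the log2 fold change ran from -1.36 to -0.65 and the adjusted p from 0.168 to 0.548, so the difference was not past the threshold in any of them. Plvap was 54.5, 66.0 and 85.5 CPM in the trained mice, with the highest value of all 9 mice in NASH+Exercise replicate 22. Its log2 fold change against NASH was 0.16, with a 95% interval from -0.35 to 0.68, and its sign turned to -0.04 without scaling.

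Among the identity genes, Stab2 was 49.5, 45.3 and 38.0 CPM with training and Stab1 was 37.8, 33.7 and 44.6 CPM. In both cases the trained mice overlapped NASH and Control alike. Their log2 fold changes against NASH were -0.27 (95% interval -0.66 to 0.12) and -0.28 (-0.58 to 0.01). Lyve1 was 5.54, 3.97 and 5.80 CPM, with a log2 fold change of -0.51 and an interval from -1.29 to 0.26. Fcgr2b (28.1, 17.7 and 20.3 CPM) gave -0.38, and Oit3 (14.8, 10.4 and 12.9 CPM) gave -0.32. Clec4g was the tightest of the trained group, at 36.2, 31.7 and 35.5 CPM, and its log2 fold change was 0.08 (-0.44 to 0.60), or -0.11 without scaling. Dnase1l3 (44.8, 32.2 and 45.5 CPM) gave -0.19, and Gata4 (21.7, 23.3 and 17.3 CPM) gave 0.00 with an interval from -0.34 to 0.34. The median of the 8 identity genes was -0.28, beside -0.03 for all genes tested.

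The third comparison set trained NASH mice against Control. Again 0 of the 10 members were DEGs, against 13.5% of all genes tested, and 0 passed by the adjusted p alone, against 25.1%. No member separated the groups completely, whereas 38.6% of all genes did. At an unadjusted p under 0.05 there were also 0 members, and DESeq2 called 0, again without shares of all genes under these rules. The largest difference was that of Cd34, 0.84 ± 0.45 on the log2 scale with an adjusted p of 0.209. Without NASH+Exercise replicate 18 it was 1.19 and passed at an adjusted p of 0.0498. Lyve1 followed at 0.77 (adjusted p 0.157), and without Control replicate 29 it was 1.23 and passed at 0.0276. Plvap gave 0.46 (95% interval -0.06 to 0.98, adjusted p 0.186), with 0.60 and an adjusted p of 0.0448 without scaling. Stab2 gave 0.34 (-0.05 to 0.73), and the other 6 members lay between -0.09 and 0.22. The median of the 8 identity genes was 0.16, beside 0.00 for all genes tested.

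Within each group, most identity genes had the same mouse at an extreme, a pattern that was described and not tested. Among the Control mice, replicate 29 was the highest for 6 of the 8 identity genes and replicate 3 the lowest for 7. The median deviation of the 8 genes from the group mean, on the log2 CPM scale, was 0.39 and -0.43 in these mice. Over all genes tested it was 0.01 and -0.01. Among the NASH mice, replicate 5 was the highest for 7 of the 8 and replicate 19 the lowest for 6, with median deviations of 0.25 and -0.28. In NASH+Exercise, replicate 18 was the lowest for 6 of the 8, with a median deviation of -0.23. Gata4 and Stab1 departed least from their group means in Control, and Gata4 was highest in the trained mouse in which 6 others were the lowest. The plot of deviations by mouse shows this pattern.

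**Figure D3:**
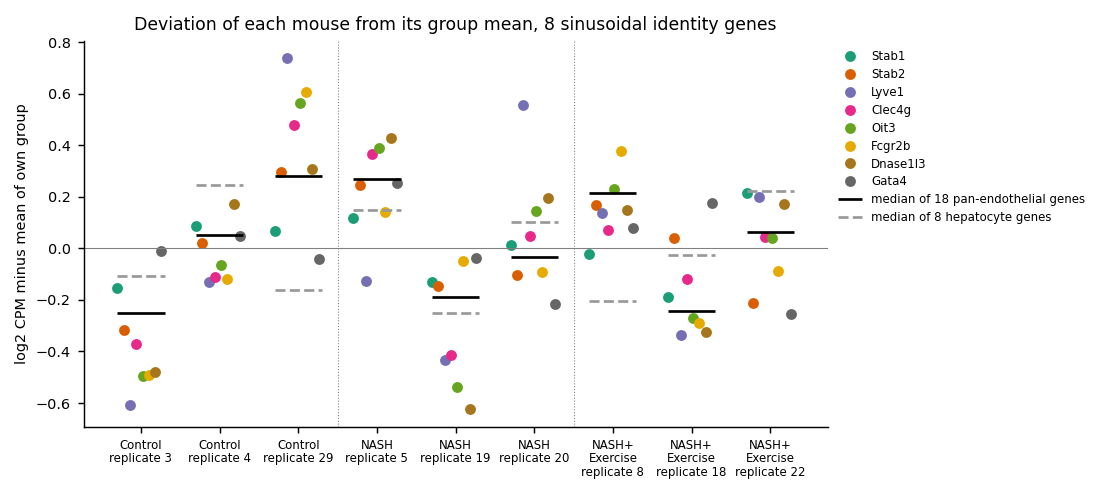
Deviation of each mouse from the mean of its own group, as log2 CPM, for the 8 identity genes (coloured points), with the median deviation of 18 pan-endothelial genes (solid line) and of 8 hepatocyte genes (dashed line). Control replicate 3 has all 8 points below 0 and Control replicate 29 has 7 of 8 above, and the pan-endothelial median lies on the same side as most points in each of these mice.

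Pan-endothelial genes moved with these deviations. Their median deviation was 0.28 in Control replicate 29, -0.25 in Control replicate 3, 0.27 in NASH replicate 5, -0.19 in NASH replicate 19 and -0.24 in NASH+Exercise replicate 18. Hepatocyte genes had medians of -0.16, -0.11, 0.15, -0.25 and -0.03 in the same mice. Within NASH, where replicate 20 was at 0.10, they ran in the order of the identity genes. In Control and NASH+Exercise they did not. Genes of Kupffer cells, the resident macrophages of the sinusoid, had medians of 0.53, -0.41, 0.35, -0.51 and -0.13. How much endothelium or how many macrophages each piece of tissue held was not measured, and the part of either in the spread of the members was not tested.

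To set the members against the endothelium of the same library, each gene's TPM was divided by the geometric mean TPM of the 18 pan-endothelial genes. Ratios are given on the log2 scale, and an exact two-sided permutation test of 3 mice against 3 cannot go below p = 0.1. In NASH against Control, 4 of the 10 members had ratios that did not overlap between the groups, against 43.6% of the 13403 genes with a TPM above 0 in every mouse. Stab2 was 0.70 ± 0.01 (SD, n = 3) in Control and 0.98 ± 0.05 in NASH, a tight ratio in both (exact permutation p = 0.1). Cd34 was -2.99 ± 0.99 in Control and -1.44 ± 0.46 in NASH (exact permutation p = 0.1). Lyve1 was -1.30 ± 0.42 and -0.29 ± 0.54, and Clec4g was lower in NASH, at 2.99 ± 0.19 against 3.23 ± 0.17 (exact permutation p = 0.1 for each). Gata4 was 1.33 ± 0.31 in Control and 0.87 ± 0.16 in NASH with overlapping mice (exact permutation p = 0.2), and Plvap barely differed, at 3.25 ± 0.25 and 3.18 ± 0.23 (exact permutation p = 0.8).

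**Figure D4:**
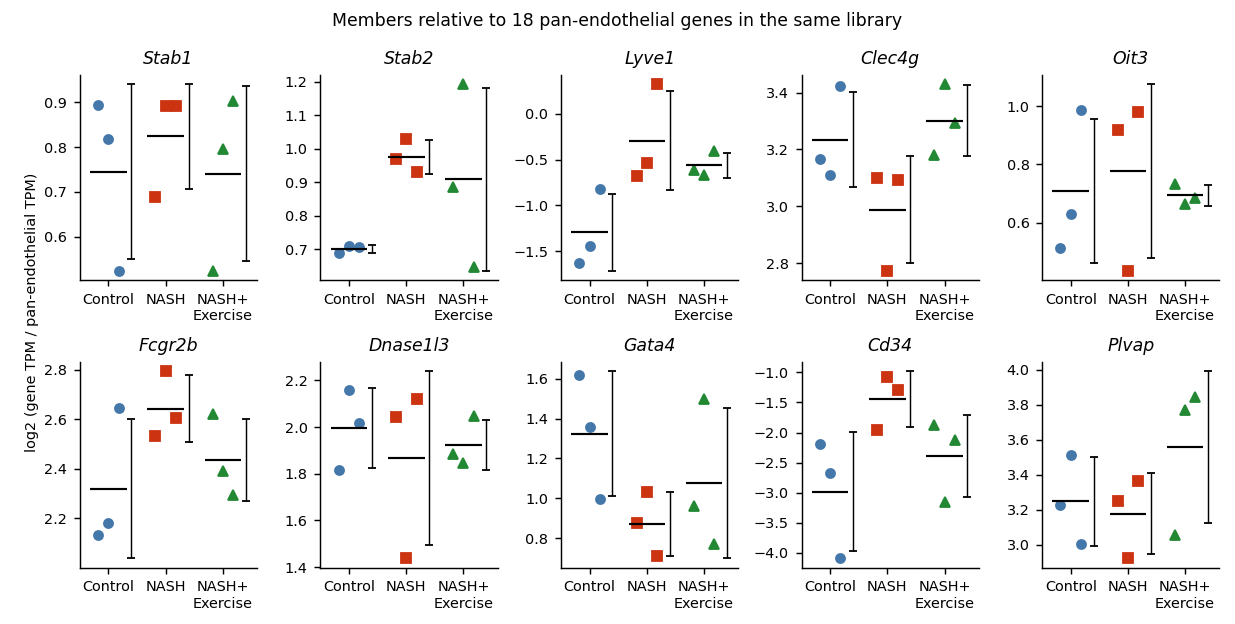
Log2 ratio of each member's TPM to the geometric mean TPM of 18 pan-endothelial genes in the same mouse, with group means as lines and SD as bars, on vertical axes that differ between panels and do not start at 0. Stab2, Lyve1 and Cd34 lie higher and Clec4g lower in all 3 NASH mice than in all 3 Control mice.

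These ratios carry the changes of the reference itself. Pecam1, an adhesion molecule of endothelial junctions and leukocytes, and Cdh5, which encodes VE-cadherin, both rose in NASH by the adjusted p, by 0.76 and 1.09 on the log2 scale. When this pair replaced the 18 genes, the NASH minus Control difference of every member therefore moved by the same -0.57, and the change of reference says nothing about any single member. The order of the members was the same by construction, with Cd34 at 0.98 and Lyve1 at 0.43 as the highest. Stab2 went from 0.27 to -0.29, and the signs of Stab1, Oit3 and Fcgr2b turned as well, so these signs depend on the reference chosen. With the pair, 5 of 10 members separated, beside 58.5% of all genes. In NASH+Exercise against NASH, 1 of 10 members had separate ratios, against 14.0% of all genes. This was Clec4g, higher by 0.31 with training (exact permutation p = 0.1). In NASH+Exercise against Control it was Lyve1 alone, higher by 0.73 (exact permutation p = 0.1), against 25.0% of all genes. With Pecam1 and Cdh5 as the reference, every difference in that comparison moved by -0.61, and 7 of 10 members separated beside 55.8% of all genes.

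Ratios between members need no reference list. Cd34 per Stab2, in TPM, was 0.136, 0.0961 and 0.0359 in Control, 0.132, 0.233 and 0.214 in NASH, and 0.147, 0.0490 and 0.146 in NASH+Exercise. Control replicate 3 reached just into the NASH range. Plvap per Stab2 was 4.91 to 6.98 in Control mice, 3.71 to 5.41 in NASH mice and 4.50 to 9.18 in trained mice, and all groups overlapped. Clec4g per Stab2 was 5.28 to 6.58 in Control and 3.35 to 4.48 in NASH, which did not overlap, and it was 4.72 to 6.26 in NASH+Exercise, above all NASH mice and overlapping Control. Stab2 per Stab1 ranged from 0.838 to 1.32 over all 9 mice. Cd34 per Plvap was 0.00732 to 0.0233 in Control and 0.0272 to 0.0628 in NASH, without overlap. Lyve1 per Stab2 and Plvap per Clec4g overlapped between these groups. How often ratios of other gene pairs separate was not computed, so separation of these pairs is a description only.

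Other endothelial lists are read against all genes tested, of which 21.2% rose and 14.4% fell in NASH by the adjusted p and 15.3% were DEGs that rose. Of 8 other sinusoidal genes tested, 1 rose in NASH, Tfec, a transcription factor of the MiT family that macrophages also express (log2 fold change 2.18 ± 0.29, adjusted p 0.000250), and the median was 0.49. Of 18 pan-endothelial genes, 4 rose and 14 did not pass the test, with a median of 0.19. Cdh5 (1.09 ± 0.28, adjusted p 0.0121), Cd93 (1.24 ± 0.27, adjusted p 0.00462) and Ecscr (1.24 ± 0.27, adjusted p 0.00470) were DEGs, while Pecam1 rose by 0.76 (adjusted p 0.0220). Cd93 encodes a surface lectin of endothelium and myeloid cells. Of 7 genes of continuous endothelium, 3 rose, the stem cell antigen gene Ly6a (3.03 ± 0.31, adjusted p 7.28e-05), the fatty acid carrier gene Fabp4 (1.25 ± 0.23, adjusted p 0.00211) and Esm1, which encodes endocan (0.160 CPM in Control and 1.38 CPM in NASH, adjusted p 0.000489). Vwf, the von Willebrand factor gene that defines large-vessel endothelium, was 6.85 ± 2.23 CPM in Control and 5.39 ± 1.86 CPM in NASH and did not pass. Which cells the rise of Ly6a, Fabp4 and Esm1 came from was not tested.

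In NASH, 7 of 10 basement membrane genes rose, beside 21.2% of all genes, 1 fell and 2 did not pass the test, and the median log2 fold change was 0.81. The DEGs were Nid1, which encodes the linker protein nidogen-1 (2.32 ± 0.23, adjusted p 4.24e-05), and the type IV collagen genes Col4a2 (1.39 ± 0.22, adjusted p 0.000899) and Col4a1 (1.49 ± 0.25, adjusted p 0.00120). Nid2, which encodes nidogen-2 and was singled out after its values were seen, fell by 0.95 on the log2 scale (adjusted p 0.0219). Summed over the list, the level was 91.6 to 127 CPM in Control mice, 206 to 240 CPM in NASH mice and 127 to 157 CPM in trained mice. All 10 were lower in sign with training than in NASH, with a median of -0.52, as were 54.9% of all genes, and 0 of 10 passed the test, the smallest adjusted p being 0.0974 for Nid1 (-1.14). Stellate cells also make these proteins, and 5 of 10 genes of stellate cells and fibroblasts rose in NASH, led by Col1a1 (4.63 ± 0.32), Col3a1 (3.47 ± 0.29) and Col1a2 (3.39 ± 0.30), with adjusted p values of 8.66e-06, 2.17e-05 and 2.64e-05. Their part in the basement membrane result was not tested.

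Set against Control, the trained mice also had calls in these endothelial lists, in a comparison where 15.6% of all genes rose and 9.58% fell by the adjusted p. Tfec (1.79, adjusted p 0.00134) was again the 1 other sinusoidal gene that rose, and Cdh5 (0.91, adjusted p 0.0366) the 1 of 18 pan-endothelial genes. Ly6a (1.76, adjusted p 0.00245), Fabp4 (0.99, adjusted p 0.0110) and Esm1 (0.160 CPM in Control and 0.606 CPM with training, adjusted p 0.0176) rose among the 7 genes of continuous endothelium. Of the 10 basement membrane genes, Nid1 (1.18, adjusted p 0.00358), Col4a2 (0.87, adjusted p 0.0166) and Col4a1 (0.78, adjusted p 0.0417) rose and Nid2 fell by 1.19 on the log2 scale (adjusted p 0.0111), with a list median of 0.27. Both comparisons share the Control mice, and the difference between them is the comparison of NASH+Exercise with NASH, in which 0 genes of these lists passed.

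**Figure D5:**
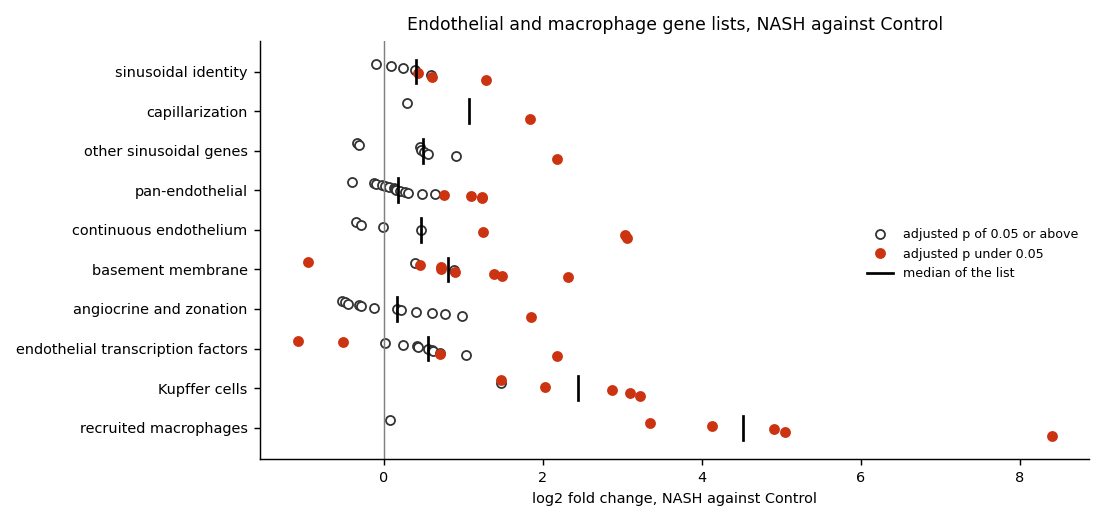
Log2 fold change in NASH against Control of each tested gene in 10 lists, with filled points for an adjusted p under 0.05, open points otherwise, and the list median as a vertical line. The sinusoidal identity genes lie between -0.09 and 1.29, beside medians of 0.19 for pan-endothelial genes, 0.81 for basement membrane genes, 2.45 for Kupffer cell genes and 4.52 for recruited macrophage genes.

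Macrophage genes stand beside the results of Stab1, Lyve1 and Fcgr2b because macrophages can express them. Of 6 Kupffer cell genes, 5 rose in NASH, beside 21.2% of all genes, and their summed level was 66.0 to 120 CPM in Control mice, 382 to 662 CPM in NASH mice and 440 to 527 CPM in trained mice. Of 6 genes of recruited macrophages, 5 rose as well, with sums of 38.4 to 97.8, 193 to 392 and 128 to 212 CPM. Cd5l (3.23 ± 0.22, adjusted p 6.79e-06), a soluble scavenger protein of Kupffer cells, and Cd68 (3.35 ± 0.16, adjusted p 1.88e-06), a lysosomal glycoprotein, were among the strongest. No gene of either list was at 0 in a whole group, and the part of macrophages in the rise of Stab1 and Lyve1 was not tested. Beside Cd34 stand genes of the mesothelium, the liver's outer cell layer, of which the 2 tested, Gpm6a (1.23, adjusted p 0.0491) and Wt1 (2.04, adjusted p 0.0144), rose in NASH. Their list of 5 summed to 0.969 to 2.63 CPM in Control mice, 2.99 to 5.53 CPM in NASH mice and 1.36 to 2.14 CPM in trained mice, and its part in the level of Cd34 was not tested.

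Likeness of pattern over the 9 mice was measured for Stab2 and Plvap as the root mean square difference of centred log2 CPM, against 13618 other genes. Closest to Stab2 were Ctdspl (0.0991), Leprot (0.104) and Ttc5 (0.111). The nearest members to it were Fcgr2b at rank 176 and Stab1 at rank 351, and Cd34 was at rank 12066. Closest to Plvap were Anks1 (0.181), Sema6b (0.182) and Farp1 (0.183), with Stab1 and Clec4g at ranks 514 and 517. These are descriptions over 9 libraries that share their scaling.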

How the data were processed

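Liver mRNA libraries of 9 mice were used, 3 per group and 1 per mouse, with groups taken from the sample labels. For each Entrez identifier the authors deposited estimated counts, which are not normalized, together with TPM and FPKM values, and the deposited FPKM values were not used. The submitters' processing notes list HISAT2 2.1.0, Bowtie2 2.2.5, RSEM 1.2.8 and the build GRCm38.p6 without stating their roles, and whether strand was used in counting is not given in the sources used here. The file of NASH replicate 5 also holds the values of the other mice, and of 428304 values compared 0 differed. RefSeq gave symbols for 17728 of 17846 identifiers.

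Counts were rounded and tested with edgeR 4.0.16 in R 4.3.3 (filterByExpr by group with at least 10 counts and a total of 15, TMM, a robust quasi-likelihood fit over the 9 mice by group alone, Benjamini-Hochberg adjustment over 13619 genes). DEGs were genes with an adjusted p below 0.05 whose log2 fold change exceeded 1 in size. TPM, as deposited, served for levels between genes and for ratios to 18 pan-endothelial genes, with exact two-sided permutation tests. The study used DESeq2, which was run here in version 1.42.0 as an alternative. On counts simulated from these data for NASH against Control, in which 200 genes had a log2 fold change of 1 in size, edgeR called 63.5% of them by the adjusted p and 2.31% of its calls were false. That simulation gave every gene the same biological variation, and its changes went up and down equally. In the data 35.6% of genes passed, and the within-group SD was 0.52 for Lyve1 and 0.62 for Cd34, beside a median of 0.23. The simulated shares therefore do not carry over to single members.

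The mice are separate animals, 20085976 to 22495408 reads were counted per mouse, and p-values rest on the spread among 3 mice per group. Floors of 3 counts cover counting error only, since reads carry no molecular identifiers. The members, the 20 gene lists and the tests were chosen with earlier results of these data known. All members are named, and from each other list the 3 genes with the smallest adjusted p among those called, plus genes that define a cell type beside a result and, for Stab2 and Plvap, the 3 genes with the most similar pattern. Pecam1, Ets1, Nr2f2, Vwf and other genes named outside this rule were chosen after their values were seen. Alternatives were RLE size factors, library size alone, no filter on low counts, DESeq2, the 6 mice of a comparison alone, the adjusted p alone, each mouse left out in turn, and Pecam1 with Cdh5 as the reference of the ratios.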

Additional observations from a re-analysis of the deposited data

How the results depend on the processing

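In NASH against Control, the count of called members was 4 instead of 2 with the adjusted p alone, and 1 to 2 when each mouse was left out, the lower value without Control replicate 3, Control replicate 4 or NASH replicate 20, each of which lost Lyve1. In NASH+Exercise against Control it was 0 to 1 when each mouse was left out, with Lyve1 called without Control replicate 29 and Cd34 without NASH+Exercise replicate 18. The shares of all genes called with a mouse left out are not given here, so these counts have no background beside them. The median of the 8 identity genes in NASH against Control was 0.74 with library size alone, when the median of all genes was 0.36, and 0.26 to 0.56 with mice left out. It was the only median that moved by more than the spread between mice of 0.28. Signs turned with library size alone for Gata4 in NASH against Control (0.26), for Clec4g (-0.11), Gata4 (-0.19) and Plvap (-0.040) in NASH+Exercise against NASH, and for Gata4 in NASH+Exercise against Control (0.067). With mice left out, signs turned in NASH against Control for Clec4g (-0.11 to 0.33) and Gata4 (-0.23 to 0.011), in NASH+Exercise against NASH for Dnase1l3 (-0.43 to 0.032), Clec4g (-0.082 to 0.28), Gata4 (-0.10 to 0.14) and Plvap (-0.021 to 0.34), and in NASH+Exercise against Control for Oit3 (-0.14 to 0.39), Fcgr2b (-0.0020 to 0.56), Dnase1l3 (-0.15 to 0.20) and Gata4 (-0.18 to 0.025). The count of members with separate ratios in NASH+Exercise against Control was 7 with Pecam1 and Cdh5 as the reference, beside 55.8% of all genes, and 1 to 4 with mice left out, beside 29.7% to 48.7%, the 4 without Control replicate 29. In NASH+Exercise against NASH it was 1 to 4 with mice left out, beside 18.2% to 41.4% of all genes, the 4 without NASH+Exercise replicate 8. In NASH against Control it was 5 with Pecam1 and Cdh5 as the reference, beside 58.5% of all genes. With mice left out it was 4 to 6 there, beside 46.9% to 64.1%. A group left with 2 mice separates more easily by construction. Apart from the library scaling, the causes were not tested. No paired analysis was possible because the groups consist of separate mice. Reads limit Cd34 and Lyve1 the most, with 9 and 33 counts in their lowest mouse.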

Other observations

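Other endothelial programs were read from lists beyond those of the report. Of 5 leukocyte adhesion genes, 4 rose in NASH against Control, beside 21.2% of all genes tested (quasi-likelihood test of edgeR, Benjamini-Hochberg adjusted, as throughout). Icam1 rose from 14.4 ± 1.55 to 57.9 ± 1.86 CPM (log2 fold change 2.01 ± 0.15, adjusted p 8.70e-06) and Vcam1 from 5.60 ± 2.35 to 42.9 ± 7.41 CPM (2.94 ± 0.30, adjusted p 6.51e-05). Both encode docking proteins for leukocytes, and hepatocytes and macrophages can express them too. Sele, the gene of E-selectin, had 0 counts in all 3 Control mice and 10 to 16 counts in the NASH mice, which is at least 2.33-fold higher when the lowest NASH mouse is set against a floor of 3 counts per library. In NASH+Exercise, Icam1 was 63.3 CPM and Vcam1 28.0 CPM, both above Control (adjusted p 1.33e-05 and 0.000382), and 0 of the 5 genes differed from NASH by the adjusted p. The sinusoidal identity genes had log2 fold changes of -0.09 to 1.29 in the same livers.

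Of 13 angiocrine and zonation genes, 1 rose in NASH, the Tie2 ligand gene Angpt2 (1.85 ± 0.48, adjusted p 0.0129), with a list median of 0.17, beside 35.6% of all genes that changed in either direction by the adjusted p. Wnt2, a Wnt ligand of central vein endothelium, was 2.85 ± 0.39 CPM in Control and 1.98 ± 0.80 CPM in NASH and did not pass. Of 13 endothelial transcription factor genes, Tfec and Ets1 (0.71, adjusted p 0.0114) rose, Zfpm1, which encodes the GATA partner FOG-1, fell by 1.08 on the log2 scale (adjusted p 0.000221), and Nr2f2 fell by 0.51 (adjusted p 0.0373), so that 4 of 13 changed beside the same 35.6%. Zfpm1 was at 145 CPM in Control and its cell of origin was not tested. Of 3 lymphatic genes tested, Ccl21a fell by 1.59 (adjusted p 0.00709), and its near-identical copies leave its counts uncertain.

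Among lists of other cells, 6 of 6 T and NK cell genes, 4 of 5 neutrophil genes, 2 of 4 cholangiocyte genes, 0 of 4 B cell genes and 0 of 5 erythroid genes rose in NASH, beside 21.2% of all genes. Of 8 hepatocyte genes 2 fell, beside 14.4% of all genes. In NASH+Exercise against NASH, 0 genes of any list passed the adjusted p.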
